A study of Mus musculus with 12 samples.

Results

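The genes described here move cholesterol into, through and out of ovarian cells, a set of 10 named for that role: the receptors Scarb1 and Lrp1, the lysosomal sterol carriers Npc1 and Npc2, the esterifying enzyme Soat1, the lipoprotein components Apoe and Apoa1, the plasma enzyme Lcat, and the efflux pumps Abca1 and Abcg1. A probe named for that gene alone was found for 8 of the 10, out of 18069 genes with such a probe and 16323 genes tested. Soat1 and Npc1 are not analysed here. Each of the 8 had 1 probe, and each lay above 0.2 units, the limit of sensitivity of the arrays, on every array that gave a value.

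The samples were whole ovaries of 180-day LY, 180-day black, 90-day LY and 90-day black female mice, with 3 mice per group, 1 array per mouse and 12 arrays in all. LY mice carry 1 copy of the lethal yellow allele (Ay/a), a deletion that places agouti under the promoter of Raly and so has it made in nearly every tissue, and black mice of the same background are a/a (the labels print the strain as C56BL/6J). The LY genotype therefore differs from the black one in agouti and in a lost copy of Raly sequence throughout the body, and not in the ovary alone. All 12 mice, the black ones included, had received the GnRH antagonist Antide at 10 μg/g on days 1 and 4 and then equine chorionic gonadotropin (eCG), which drives follicles to grow. The eCG dose was 1 IU per 5 g of body weight by the labels, while the abstract of the study gives 5 IU. Ovaries were collected on day 7.

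Ovarian cells that make steroids need cholesterol as the starting material. In rodents much of it comes from high density lipoprotein, from which the scavenger receptor encoded by Scarb1 takes up cholesteryl ester without taking in the whole particle, while the LDL receptor family, Lrp1 among it, takes in whole particles that are broken down in lysosomes. Npc2 hands the freed sterol to Npc1 for exit from the lysosome, Soat1 makes the ester kept in lipid droplets, and Abca1 and Abcg1 pass surplus sterol to apolipoproteins and lipoprotein particles outside the cell, where Lcat esterifies it.

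RefSeq promoter windows (GRCm38.p6) were at hand for 7 of the 10 genes, as 9 windows, but not for Scarb1, Abcg1 or Npc1. The 250 bases before each annotated start were searched on both strands. The core of the sterol regulatory element, CACCCCAC, was in 0 of the 9 windows, against 2.58% of all 32851 windows of that length, and the extended NR5A half-site, CAAGGTCA, was in 0 of 9, against 1.33%. With shares that small, 0 of 9 says little about these genes. Several of the 9 windows belong to Apoe and another to Soat1. The GC box GGGCGG, on either strand, a motif added after the first search, was in 3 of 9 windows, against 32.7% of all. Those 3 belong to Npc2, with 3 boxes, Abca1, with 2, and Lrp1, with 1, and since the other motifs had no match, no match overlapped another. The windows of Npc2 (chr12:84773113-84773362, minus strand) and Lrp1 (chr10:127621149-127621398, minus strand) are shown because these genes had LY arrays above black arrays at 180 days and below them at 90 days, and that of Apoa1 (chr9:46228380-46228629, plus strand) because it was the only one of the 8 with LY arrays below all black arrays at both ages. They run 5′ to 3′ towards the start, with GC boxes in capitals.
Npc2: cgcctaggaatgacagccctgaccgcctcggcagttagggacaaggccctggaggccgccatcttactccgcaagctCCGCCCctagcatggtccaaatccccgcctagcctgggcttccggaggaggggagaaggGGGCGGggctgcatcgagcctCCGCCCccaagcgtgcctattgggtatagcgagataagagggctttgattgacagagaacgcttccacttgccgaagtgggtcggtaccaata
Lrp1: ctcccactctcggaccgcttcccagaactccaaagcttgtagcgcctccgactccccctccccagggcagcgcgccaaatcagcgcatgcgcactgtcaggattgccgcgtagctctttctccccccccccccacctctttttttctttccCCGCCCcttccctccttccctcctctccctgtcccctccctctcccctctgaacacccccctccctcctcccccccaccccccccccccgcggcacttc
Apoa1: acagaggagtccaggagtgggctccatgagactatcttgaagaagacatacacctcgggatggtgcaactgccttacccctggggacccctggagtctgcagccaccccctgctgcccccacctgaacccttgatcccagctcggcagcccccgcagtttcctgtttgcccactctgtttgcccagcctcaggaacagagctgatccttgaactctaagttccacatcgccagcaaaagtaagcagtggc

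The labels were checked against the genes of the allele. The agouti probe read 95.7 to 111 units on the 6 LY arrays and 0.169 to 0.368 units on the 6 black arrays, and the brighter of the Raly probes read 7.75 to 10.9 units on LY arrays, against 13.0 to 23.6 units on black arrays. A unit is a background-corrected intensity relative to the median probe of its array. Correlations between arrays lay between 0.970 and 0.987 inside a group, between 0.962 and 0.984 for LY with black arrays of 1 age, and between 0.918 and 0.938 across the ages.

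Between LY and black ovaries, none of the 8 genes passed the threshold of 0.05 on the adjusted p in the limma fit, where p-values were adjusted by Benjamini-Hochberg over all 31359 probes. That held at 180 days (background 0.0446% of probes), at 90 days (0.0446%), for the mean of the ages (0.00638%) and for the difference at 180 days minus the difference at 90 days, called the difference in differences below (0%, which is 0 probes, with 3799 probes at an unadjusted p under 0.05). At 180 days the groups did not overlap for 5 of 8 genes (22.6% of all probes), with LY arrays above black arrays for Abca1, Npc2 and Lrp1 and below them for Apoa1 and Lcat. At 90 days they did not overlap for 4 of 8 (16.6%), Scarb1, Apoa1, Npc2 and Lrp1, with LY arrays below black arrays in all 4 (9.66%). Unadjusted p-values were under 0.05 for 2 of 8 genes at 180 days (12% of probes), 4 of 8 at 90 days (13.3%), 1 of 8 for the mean of the ages (13%) and 4 of 8 for the difference in differences (12.1%). With 8 genes, these shares rest on few genes.

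**Figure D1:**
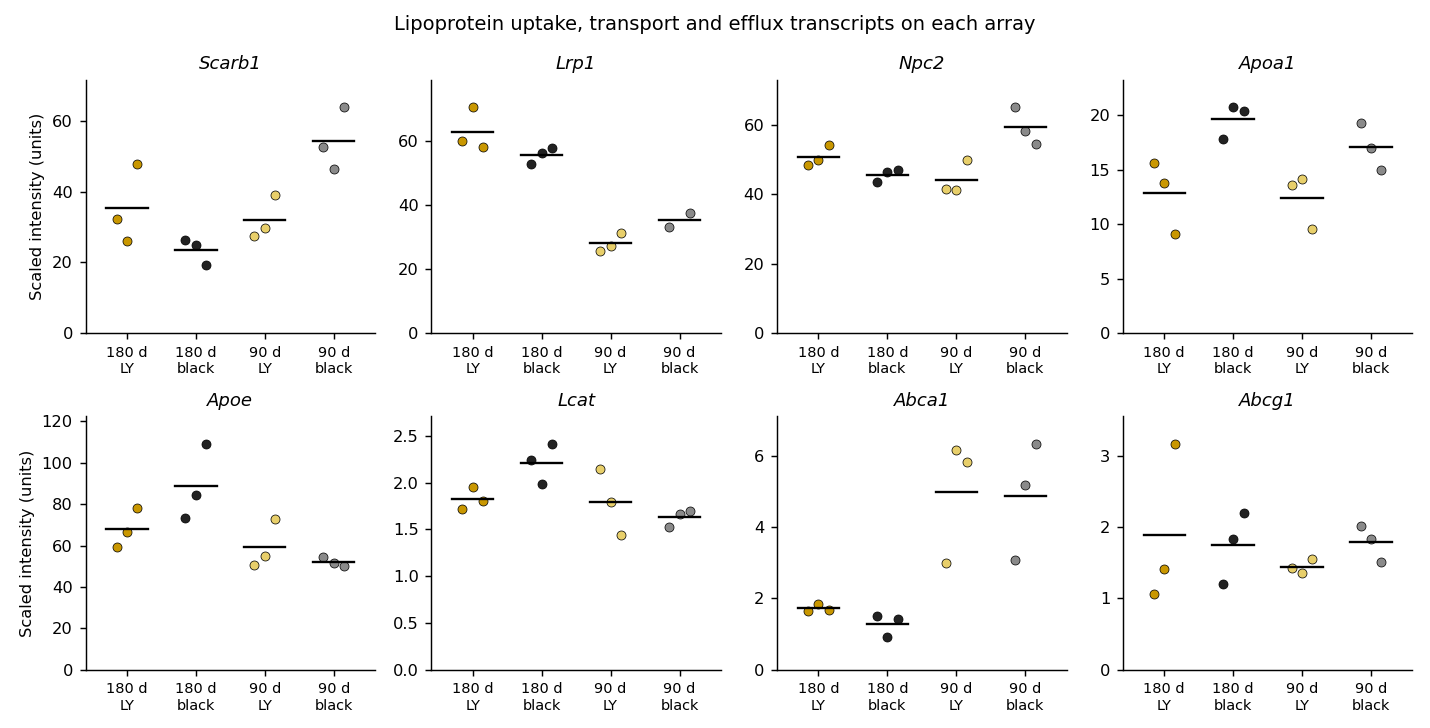
Scaled intensity in units (linear axis from 0) of each of the 8 measured genes on each array, one panel per gene, with groups from left to right 180-day LY, 180-day black, 90-day LY and 90-day black. Points are single mice and lines are group means (n = 3, and n = 2 for Lrp1 in 90-day black mice). Scarb1 is highest in 90-day black ovaries, at 46.5 to 63.9 units, Lrp1 is higher in all 180-day ovaries, and Abca1 is lower in all 180-day ovaries.

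Scarb1, the receptor for high density lipoprotein (chr5:125277087-125341094, GRCm38.p6), had LY means above black means at 180 days and below them at 90 days. It measured 32.4, 26.1 and 47.7 units in 180-day LY ovaries, against 26.3, 24.95 and 19.2 units in 180-day black ovaries. In 90-day ovaries the values were 27.5, 29.6 and 39.1 units in LY mice, against 52.5, 46.5 and 63.9 units in black mice. At 180 days the ranges met, since the lowest LY array lay just under the highest black array, and at 90 days every LY array lay below every black array. The LY minus black log2 difference was 0.56 ± 0.23 at 180 days (SE, n = 3 each, adjusted p = 0.375), a 1.47-fold difference with a 95% confidence interval of 1.036 to 2.09, and without 180-day LY replicate 3 it was 0.32. It was -0.77 ± 0.23 at 90 days (adjusted p = 0.206), a ratio of 0.588 with an interval of 0.414 to 0.836. The difference in differences was 1.32 ± 0.32 on the log2 scale (adjusted p = 0.154), the widest among the 8 genes, and an exact permutation of genotypes within each age gave p = 0.01 (two-sided, 400 regroupings, smallest possible p 0.005). The 8 genes were each permuted this way, and those p-values are not adjusted. The null of this permutation is no LY difference at either age, so a difference at a single age can also give a small p. Over the alternatives tried the difference in differences stayed between 1.09 and 1.52. In RNA of whole ovaries, fewer cells of a type and less RNA per cell cannot be told apart, here and for every gene below.

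Star and Cyp11a1, markers of steroid-making cells, had the same order of LY and black means at each age as Scarb1. Star, which carries cholesterol into mitochondria, measured 41.7, 28.1 and 44.01 units in 180-day LY ovaries, against 19.9, 23.8 and 16.4 units in 180-day black ovaries, and 22.2, 18.6 and 30.2 units in 90-day LY ovaries, against 33.2, 36.3 and 29.6 units in 90-day black ovaries. Cyp11a1, which makes pregnenolone from cholesterol, measured 76.5, 73.3 and 98.1 units in 180-day LY ovaries, against 59.2, 57.8 and 57.9 units in 180-day black ovaries. In 90-day LY ovaries it measured 81.6, 88.8 and 103 units, against 109, 135 and 108 units in 90-day black ovaries. Both lay above the black arrays without overlap at 180 days, and Cyp11a1 also lay below them without overlap at 90 days. The difference in differences was 1.42 for Star (adjusted p = 0.116) and 0.86 for Cyp11a1 (adjusted p = 0.130). Of the others on that list of 4 genes, Hsd3b1 had this order of means with a difference in differences of 0.23 (adjusted p = 0.610), and Cyp17a1 did not, with LY means above black means at both ages and a difference in differences of 0.04 (adjusted p = 0.984). The list summed to 436 to 581 units in 180-day LY ovaries, against 366 to 446 in 180-day black ovaries, and 467 to 491 in 90-day LY ovaries, against 433 to 606 in 90-day black ovaries. The part of such cells in the Scarb1 values was not tested.

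**Figure D2:**
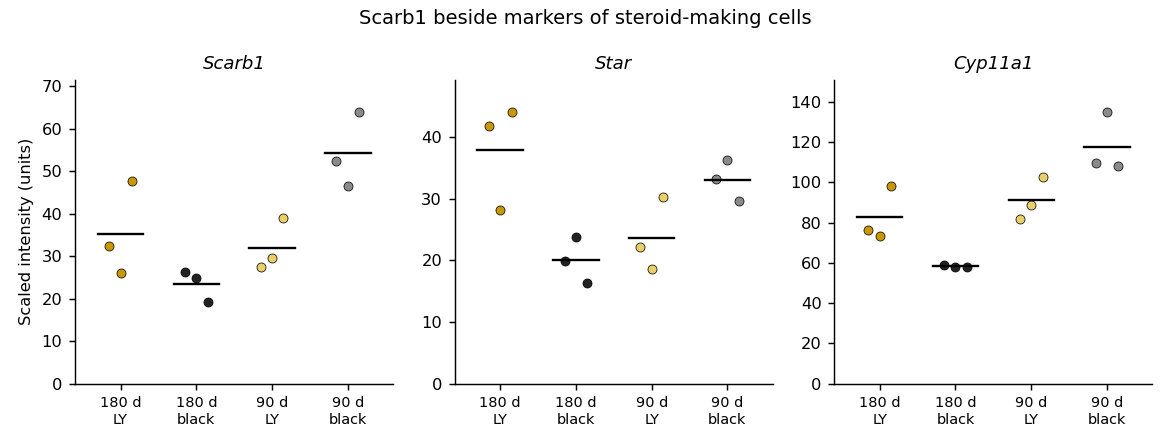
Scaled intensity in units (linear axis from 0) of Scarb1, Star and Cyp11a1 on each array, with groups from left to right 180-day LY, 180-day black, 90-day LY and 90-day black. Points are single mice (n = 3 per group) and lines are group means. In all 3 panels the LY mean is above the black mean at 180 days and below it at 90 days. Star and Cyp11a1 were chosen from a list of 4 markers after their values were seen. Of the others, not shown, Hsd3b1 had this order of means and Cyp17a1 had LY means above black means at both ages.

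Lrp1, an LDL receptor family member that takes up remnant particles carrying apolipoprotein E (chr10:127538157-127621148), differed mainly between the ages. It measured 59.8, 70.5 and 58.1 units in 180-day LY ovaries, against 52.6, 56.0 and 57.6 units in 180-day black ovaries. The 90-day LY ovaries gave 25.4, 27.3 and 31.1 units, against 33.0 and 37.5 units in the 90-day black ovaries, where 90-day black replicate 2 had no value and was left out of the fit of this gene. LY arrays lay above black arrays at 180 days by a narrow margin and below them at 90 days. The log2 difference was 0.18 ± 0.11 at 180 days (adjusted p = 0.575) and -0.34 ± 0.13 at 90 days (adjusted p = 0.298). The difference in differences was 0.51 ± 0.17 (adjusted p = 0.258), and exact permutation gave p = 0.015 (200 regroupings). With quantile normalization the difference at 180 days was 0.04, while that at 90 days was -0.61.

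Npc2, the soluble sterol carrier of the lysosome (chr12:84754559-84773112), showed the same order of LY and black arrays at each age as Lrp1, with all 12 arrays measured. It measured 48.5, 49.8 and 54.1 units in 180-day LY ovaries, against 43.6, 46.4 and 47.0 units in 180-day black ovaries. At 90 days it measured 41.5, 41.2 and 49.7 units in LY ovaries, against 65.2, 58.1 and 54.5 units in black ovaries. The groups did not overlap at either age, and the 90-day difference was the wider one. Its log2 difference was 0.15 ± 0.10 at 180 days (adjusted p = 0.594) and -0.43 ± 0.10 at 90 days (adjusted p = 0.135), a ratio of 0.744 with a 95% confidence interval of 0.635 to 0.871. The difference in differences was 0.58 ± 0.15 (adjusted p = 0.160), and exact permutation gave p = 0.005, the smallest it can give. That p follows from the non-overlap in opposite directions and adds nothing to it. LY arrays above black at 180 days and below at 90 days, or the reverse, without overlap, were seen for 2 of 8 genes, Npc2 and Lrp1, and for 2.26% of all probes. The size of the Npc2 difference in differences depended on the scaling, since with quantile normalization it was 0.18 (adjusted p = 0.577) and the 180-day difference 0.02.

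**Figure D3:**
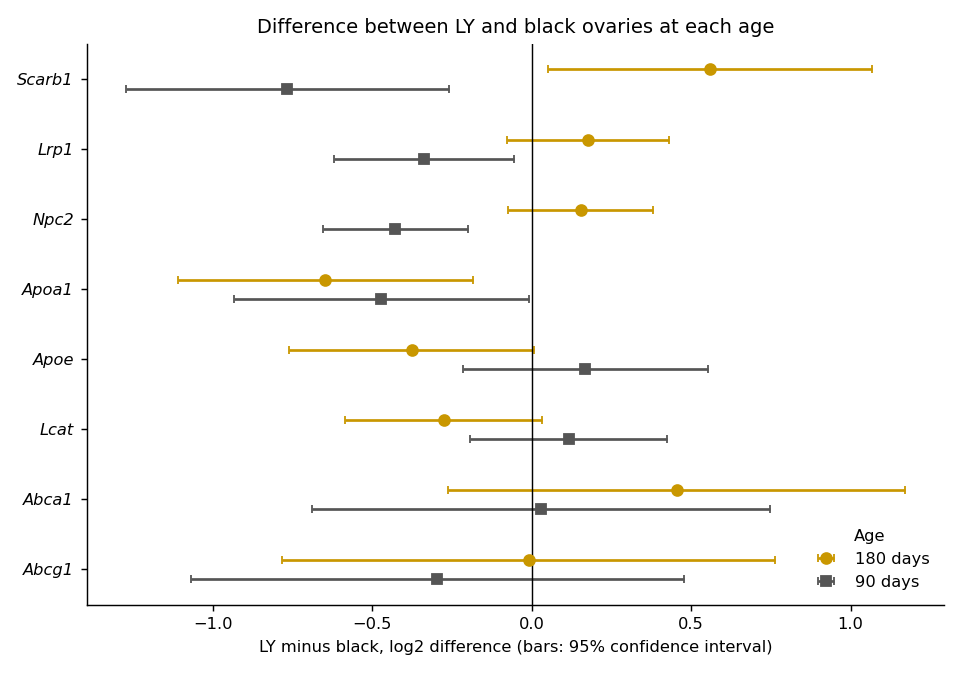
LY minus black difference on the log2 scale for each of the 8 genes at 180 days (circles) and 90 days (squares), from the limma fit to all 12 arrays. Horizontal bars are 95% confidence intervals and the vertical line marks no difference. Scarb1, Lrp1 and Npc2 lie to the right of the line at 180 days and to the left at 90 days, Apoe and Lcat lie the other way round, and Apoa1 lies to the left of it at both, at -0.65 and -0.47.

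Apoa1, the main protein of high density lipoprotein (chr9:46228630-46230469), was the only one of the 8 that had every LY array below every black array at both ages, a pattern seen for 0.918% of all probes. It measured 15.7, 13.8 and 9.11 units in 180-day LY ovaries, against 17.8, 20.8 and 20.4 units in 180-day black ovaries. In 90-day ovaries the values were 13.6, 14.2 and 9.58 units in LY mice, against 19.3, 17.0 and 15.0 units in black mice. In both LY groups replicate 3 held the lowest value. The log2 difference was -0.65 ± 0.21 at 180 days (adjusted p = 0.274) and -0.47 ± 0.21 at 90 days (adjusted p = 0.370). Without replicate 3 of the LY group of that age these were -0.42 and -0.29. Averaged over the ages it was -0.56 ± 0.15 (adjusted p = 0.174), a ratio of 0.679 with a 95% confidence interval of 0.541 to 0.852. LY ovaries were lower at both ages, and exact permutation of the averaged difference gave p = 0.005, the smallest possible. That p follows from the non-overlap in the same direction at both ages and adds nothing to it. Over the alternatives the averaged difference lay between -0.64 and -0.44. The 3 measured markers of liver, a main source of this protein, together gave 0.527 to 0.755 units in 180-day LY ovaries, 0.407 to 0.736 in 180-day black ovaries, 0.589 to 0.969 in 90-day LY ovaries and 0.593 to 4.92 in 90-day black ovaries. The highest sum, mostly Ttr (4.02 units), was on 90-day black replicate 1, the array with the highest Apoa1 of its age. At 180 days Ttr was higher in LY ovaries (0.426 to 0.496 units, against 0.341 to 0.377 in black ovaries) without overlap. Apoh also had a higher and Fga a lower mean there. Most Apoh and Fga values lay under the limit of 0.2 units. The part of these markers in the Apoa1 values was not tested.

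Apoe, a ligand of the LDL receptor family that ovarian cells also make (chr7:19696244-19701310), showed overlapping groups at both ages. It measured 59.4, 66.8 and 78.1 units in 180-day LY ovaries, against 73.4, 84.4 and 109 units in 180-day black ovaries. The 90-day LY ovaries gave 50.6, 54.8 and 72.7 units, against 54.5, 51.8 and 50.4 units in the 90-day black ovaries. The highest value of all was that of 180-day black replicate 3. Its log2 difference was -0.38 ± 0.17 at 180 days (adjusted p = 0.427) and 0.17 ± 0.17 at 90 days (adjusted p = 0.725), so the 180-day ratio of 0.771 had a 95% confidence interval of 0.591 to 1.01. The difference in differences was -0.54 ± 0.24 (adjusted p = 0.410, exact permutation p = 0.065).

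Lcat, which esterifies cholesterol on high density lipoprotein (chr8:105939551-105943402), gave LY values below black values at 180 days and overlapping values at 90 days. It measured 1.72, 1.96 and 1.80 units in 180-day LY ovaries, against 2.24, 1.99 and 2.42 units in 180-day black ovaries. At 90 days it measured 2.14, 1.79 and 1.44 units in LY ovaries, against 1.53, 1.67 and 1.70 units in black ovaries. The 180-day groups barely separated, and the 90-day LY arrays spread on both sides of the black ones. The log2 difference was -0.28 ± 0.14 at 180 days (adjusted p = 0.467) and 0.12 ± 0.14 at 90 days (adjusted p = 0.770).

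Abca1, the pump that loads sterol onto apolipoprotein A-I (chr4:53030789-53159988), differed far more between the ages than between the genotypes. It measured 1.66, 1.83 and 1.67 units in 180-day LY ovaries, against 1.51, 0.922 and 1.41 units in 180-day black ovaries. In 90-day ovaries the values were 2.98, 6.17 and 5.84 units in LY mice, against 3.07, 5.18 and 6.34 units in black mice. LY arrays lay above black arrays at 180 days, and replicate 1 was the lowest of both 90-day groups. The log2 difference was 0.45 ± 0.32 at 180 days (adjusted p = 0.614), with a 95% confidence interval for the ratio of 0.834 to 2.25, and 0.03 ± 0.32 at 90 days (adjusted p = 0.983).

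Abcg1, which passes sterol to high density lipoprotein (chr17:31057694-31117984), overlapped between genotypes at both ages. It measured 1.06, 1.42 and 3.17 units in 180-day LY ovaries, against 1.21, 1.83 and 2.20 units in 180-day black ovaries. The 90-day LY ovaries gave 1.43, 1.36 and 1.55 units, against 2.02, 1.83 and 1.503 units in the 90-day black ovaries. The highest value came from 180-day LY replicate 3, whose 6 measured macrophage markers also summed highest, at 130 units. The sums were 52.0 to 87.2 units in 180-day black ovaries and 61.0 and 73.6 units on the other 180-day LY arrays. Most of the 130 units were C1qb (83.1 units) and C1qa (34.35 units). Of the 6, only Mrc1 was not at its 180-day highest there (1.58 units, against 1.74 on 180-day LY replicate 2). The part of these markers in the Abcg1 value was not tested. Among the 180-day arrays, LY replicate 3 also held the highest Scarb1 (47.7 units) and the lowest Apoa1 (9.11 units). The log2 difference of Abcg1 was -0.01 ± 0.35 at 180 days (adjusted p = 0.994), and without 180-day LY replicate 3 it was -0.46. At 90 days it was -0.30 ± 0.35 (adjusted p = 0.764).

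Between 180 and 90 days, averaged over the genotypes, 4 of the 8 genes passed the threshold, and so did 59.3% of all probes, so the count does not set these genes apart. Since the 180-day and the 90-day arrays were run as separate sets, an effect of age and one of the array set cannot be told apart in these values. The same limit holds for the differences in differences above. Lrp1 was higher at 180 days by 0.91 ± 0.08 on the log2 scale (adjusted p = 1.08e-05) and Apoe by 0.48 ± 0.12 (adjusted p = 0.00620). Abca1 was lower at 180 days, with a log2 difference of -1.68 ± 0.23 (adjusted p = 9.83e-05) and a ratio of 0.312, and Scarb1 was lower too, with -0.55 ± 0.16 (adjusted p = 0.0135). Lcat (0.24, adjusted p = 0.0551), Npc2 (-0.08, adjusted p = 0.349), Apoa1 (0.12, adjusted p = 0.512) and Abcg1 (0.08, adjusted p = 0.801) did not pass. With quantile normalization Apoe took the opposite sign (-0.38, adjusted p = 0.0487), Lrp1 did not pass (0.27, adjusted p = 0.162) and Npc2 passed (-0.89, adjusted p = 4.01e-07), while Abca1 and Scarb1 passed in the same direction under every alternative tried.

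Around these genes, lists of lipoprotein receptors and adaptors, apolipoproteins, lipases and lipid droplet proteins, intracellular sterol carriers, and efflux pumps and their regulators named 70 genes, of which 55 were tested. None passed the threshold between LY and black ovaries at either age, in their mean or in the difference in differences. At an unadjusted p under 0.05, 5 were higher and 3 lower in LY ovaries at 180 days, 8 of 55 together, against 12% of all probes, and 1 was higher and 13 lower at 90 days, where 8.06% of all probes were lower at that limit. For the difference in differences 13 were positive, against 8.01% of all probes, and 2 negative. The median log2 difference of the 55 genes was 0.08 at 180 days and -0.10 at 90 days, against 0.03 and -0.0039 over all probes. Of the 55, 4 genes (Abca7, Plin5, Scp2 and Stard5) lay above black without overlap at 180 days and below it at 90 days, and 0 had the reverse order, against 2.26% of all probes with either order.

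**Figure D4:**
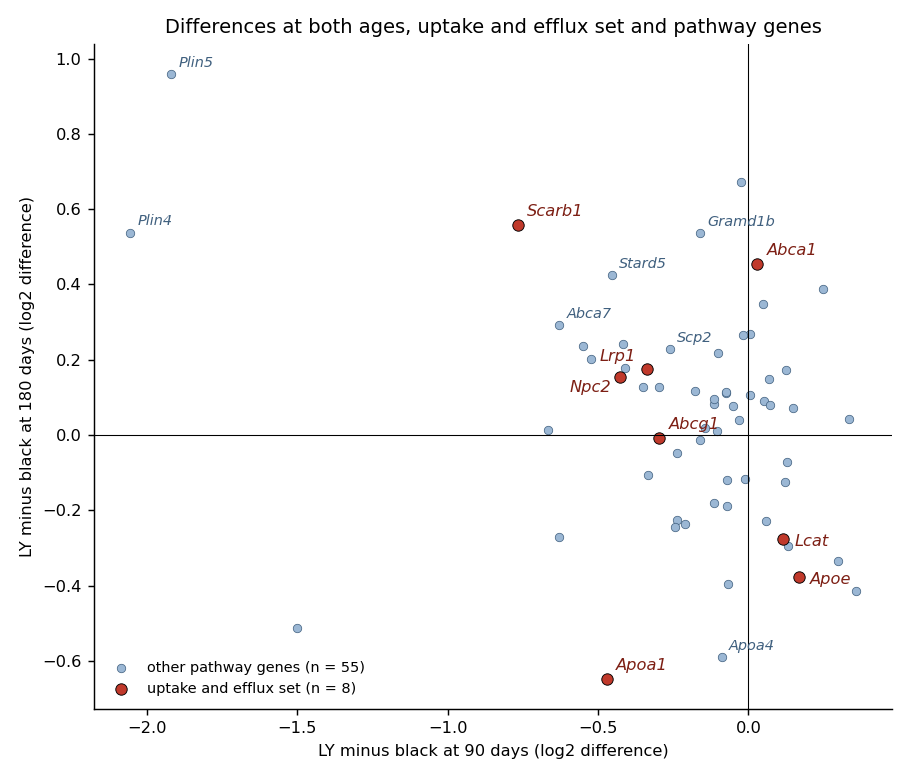
LY minus black log2 difference at 90 days (horizontal axis) against that at 180 days (vertical axis) for the 8 measured genes of the uptake and efflux set (large points) and the 55 tested pathway genes (small points). Each point is 1 gene from the limma fit to all 12 arrays. Scarb1, Npc2 and Lrp1 lie in the upper left of the plot together with Plin5, Plin4, Stard5, Abca7 and Scp2, and Apoa1 lies at the lower left.

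Among droplet proteins, Plin5, which coats lipid droplets, measured 5.24, 7.92 and 3.54 units in 180-day LY ovaries, against 2.82, 2.55 and 2.79 units in 180-day black ovaries. At 90 days it measured 2.82, 2.02 and 6.93 units in LY ovaries, against 17.3, 12.8 and 9.59 units in black ovaries. Its groups did not overlap at either age, with log2 differences of 0.96 (adjusted p = 0.408) and -1.92 (adjusted p = 0.113), and a difference in differences of 2.88 (adjusted p = 0.109). Without 90-day LY replicate 3, the highest of its group, the 90-day difference of Plin5 was -2.43 (adjusted p = 0.0284) and the difference in differences 3.39 (adjusted p = 0.0365), and both then passed. Plin4, another droplet coat protein, had log2 differences of 0.54 (adjusted p = 0.704) and -2.05 (adjusted p = 0.130) at 180 and 90 days, and Plin2 had -0.19 at 180 days (adjusted p = 0.636). Adipocyte markers, 4 genes measured, summed to 10.4 to 12.2 units in 180-day LY ovaries, against 8.70 to 22.2 in 180-day black ovaries, and to 6.601 to 23.4 in 90-day LY ovaries, against 8.88 to 39.4 in 90-day black ovaries. Lep, the dimmest of them, separated by itself at 180 days, at 0.223 to 0.442 units in LY ovaries, against 0.00189 to 0.0800 in black ovaries. Those black values all lay under the limit of 0.2 units. Cidec also had a higher mean in 180-day LY ovaries, while Adipoq and Retn had lower means. The part of these markers in the values of the droplet proteins was not tested.

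Among intracellular carriers, Stard5 measured 1.35, 1.40 and 1.54 units in 180-day LY ovaries, against 0.961, 1.037 and 1.22 units in 180-day black ovaries, and 0.639, 0.627 and 0.809 units in 90-day LY ovaries, against 0.972, 0.988 and 0.869 units in 90-day black ovaries. Its log2 differences were 0.42 (adjusted p = 0.247) and -0.45 (adjusted p = 0.183), with a difference in differences of 0.88 (adjusted p = 0.107). Scp2, sterol carrier protein 2 of peroxisomes, had 0.23 (adjusted p = 0.375) and -0.26 (adjusted p = 0.272), and Gramd1b, which moves sterol from the plasma membrane to the endoplasmic reticulum, had 0.54 at 180 days (adjusted p = 0.274), with LY arrays at 6.80, 8.07 and 11.2 units, against 6.31, 5.69 and 5.59 units on black arrays.

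Among efflux genes, Abca7, a relative of Abca1, measured 2.69, 3.04 and 3.67 units in 180-day LY ovaries, against 2.66, 2.32 and 2.65 units in 180-day black ovaries. In 90-day ovaries the values were 3.80, 3.81 and 4.14 units in LY mice, against 5.83, 6.01 and 6.33 units in black mice. The 90-day groups were the farther apart, with a log2 difference of -0.63 (adjusted p = 0.0821), and the difference in differences was 0.92 (adjusted p = 0.0889), the smallest adjusted p among the pathway genes in each case. Both passed with an intensity trend in the fit, at adjusted p = 0.0268 and 0.0251, and the 90-day difference also with a floor of 0.2 units. The trend also brought past the threshold the 90-day differences of Plin5 and Plin4 and the differences in differences of Plin5 and Stard5. At 180 days Abca7 had a difference of 0.29 (adjusted p = 0.363), Cyp27a1, a sterol hydroxylase, -0.30 (adjusted p = 0.428), and Rxra, the partner of the liver X receptors, 0.27 (adjusted p = 0.432).

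Among apolipoproteins, Apoa4 measured 3.02, 2.27 and 2.19 units in 180-day LY ovaries, against 3.85, 3.37 and 3.93 units in 180-day black ovaries, without overlap (log2 difference -0.59, adjusted p = 0.213). Apod had 0.27 (adjusted p = 0.513) and Clu, also called apolipoprotein J, -0.27 (adjusted p = 0.521). At 90 days Clu measured 22.9, 25.3 and 25.6 units in LY ovaries, against 42.0, 39.5 and 33.0 units in black ovaries, a difference of -0.63 (adjusted p = 0.138) that passed with quantile normalization (-1.24, adjusted p = 0.00802). Of the receptors and adaptors, Mylip, which marks LDL receptors for degradation, had -0.40 at 180 days (adjusted p = 0.307), Pdzk1, which anchors the Scarb1 protein in liver cells, -0.41 (adjusted p = 0.375), and Msr1, a scavenger receptor of macrophages, 0.35 (adjusted p = 0.423).

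Markers of other ovarian cells differed between the groups as well. Granulosa cell markers, 7 genes, summed to 172 to 229 units in 180-day LY ovaries, against 237 to 317 in 180-day black ovaries, and overlapped at 90 days (267 to 391 and 270 to 362). Of the 7, only Inhba and Hsd17b1 separated by themselves at 180 days, and Amh had a higher mean in LY ovaries (1.26 units, against 1.18 in black ovaries). Oocyte markers, 8 genes, summed to 40.6 to 59.8 units in 180-day LY ovaries, against 60.9 to 81.4 in 180-day black ovaries, and overlapped at 90 days (61.9 to 64.8 and 53.2 to 71.7). Of the 8, only Zp2 and Zp3 separated by themselves at 180 days, and Zp1 had a higher mean in LY ovaries (6.60 units, against 6.47 in black ovaries). Markers of surface epithelium and oviduct, 7 genes, summed to 21.9 to 23.5 units in 90-day LY ovaries, against 30.3 to 39.4 in 90-day black ovaries, and overlapped at 180 days (24.3 to 31.3 and 29.8 to 34.2). Endothelial markers, 5 genes, summed to 28.5 to 30.5 units in 180-day LY ovaries, against 26.0 to 26.9 in 180-day black ovaries, and overlapped at 90 days (21.8 to 26.9 and 25.4 to 30.3). Of the 5, only Emcn separated by itself at 180 days, at 10.9 to 12.8 units in LY ovaries, against 9.32 to 10.2 in black ovaries. Tek had a lower mean in 180-day LY ovaries (2.94 units, against 3.13 in black ovaries). Adrenal cortex markers, 3 genes, stayed below 1 unit in sum on every array, at 0.820 to 0.996 units in 180-day LY ovaries, against 0.586 to 0.794 in 180-day black ovaries without overlap, and overlapped at 90 days (0.533 to 0.813 and 0.514 to 0.563). None of the 3 separated by itself at 180 days. Under the limit of 0.2 units at that age were 3 LY and 2 black values of Cyp21a1, and 1 LY and 2 black values of Mc2r. No single marker passed the threshold between the genotypes, and the part of these cells in the 8 genes' values was not tested.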

How the data were processed

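RNA of 12 whole ovaries, 1 from each of 12 mice, was hybridized to one-colour CodeLink slides. Groups of 3 separate mice come from the sample labels. Slides were scanned with GenePix. The authors then used the CodeLink software for background correction and GeneSpring to scale the slides to the 50th percentile of expression. The deposited intensity values are linear relative units with medians of 1.00 to 1.0041 (180-day arrays) and 1.0403 to 1.04315 (90-day arrays). The gene-wise median normalization that the methods also name is not part of the deposited values. An array lacked 166 to 503 values and held 67 to 144 negative ones. The number of arrays limits the precision.

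The analysis divided the values of an array by their median, raised any value below 0.01 units to 0.01 and used log2. The platform annotation gives 1 gene name for 21615 of 36227 probes, several for 681 and no name for 13931. The test took the 31359 probes with a value in every group and a group mean reaching 0.2 units somewhere. limma 3.58.1 in R 4.3.3 fitted the 12 arrays with 1 mean for each of the 4 groups (8 residual and 2.46 prior degrees of freedom), and p-values were adjusted by Benjamini-Hochberg over all probes tested, with a threshold of 0.05. Differences in log2 are of floored values. With 3 mice against 3, an exact permutation at 1 age cannot go below 0.1, so single genes were permuted over both ages only.

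The genes, gene lists, tests and alternatives were chosen with earlier results of these data known. Besides the 8 genes, the text names up to 3 genes of each pathway list by their p at 180 days and the brightest markers, while Star and Cyp11a1, and the values of pathway genes at 90 days, were chosen after they were seen. Alternatives changed the floor, the filter, the scaling, the trend and weights of the fit, the arrays included and the test, and the methods' t-test was run as one of them. Real-time PCR, body weight and corticosterone are not analysed here.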

Additional observations from a re-analysis of the deposited data

Results flagged for a closer look

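For 3 of the 8 genes, exact permutation of genotypes within each age gave an unadjusted p under 0.05 for the difference in differences. None of the 3 passed the threshold after adjustment over all probes in limma. Each age was also an array set of its own, so a LY difference that changes with age cannot be told apart from one that changes with the array set. The null of the permutation is no LY difference at either age, so a difference at a single age can also give a small p. By limma's unadjusted p for the difference in differences, 4 of the 8 genes were under 0.05, against 12.1% of all probes. For Scarb1 the log2 difference at 180 days minus that at 90 days was 1.32 (permutation p = 0.01, adjusted p = 0.154). For Npc2 it was 0.58 (permutation p = 0.005, adjusted p = 0.160), but 0.18 with quantile normalization (adjusted p = 0.577), and for Lrp1 it was 0.51 (permutation p = 0.015, adjusted p = 0.258). Npc2 and Lrp1 had every LY array above every black array at 180 days and below it at 90 days, while the Scarb1 groups overlapped at 180 days. For Npc2, with every array measured, that order by itself fixes the permutation p.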

How the results depend on the processing

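For the 8 genes, no alternative placed one past the threshold between LY and black ovaries, except that the methods' t-test without adjustment called 2 at 90 days. Without each array in turn, 0 of 8 passed in each of these comparisons, and 4 to 5 passed between the ages. Counts over all probes moved more. At 180 days, where 14 probes passed, 52 passed with a floor of 0.2 units, 33 with a pseudocount of 0.1 units, 1 with no filter, 111 with an intensity trend, 157 with array weights, 2 in a fit on 1 age, 0 by the methods' t-test after adjustment and 4202 before it, and 1 to 21 without each array in turn. At 90 days, where 14 passed, the same settings gave 132, 25, 4, 200, 3, 2, 1 and 2799, and 1 to 66 without each array. Averaged over the ages, where 2 passed, the floor gave 56, the pseudocount 14, no filter 1, the trend 95, the weights 10, and arrays left out 1 to 6. For the difference in differences, where 0 passed, the floor gave 18, the pseudocount 21, quantile normalization 2, the trend 198, the weights 2, and arrays left out 0 to 35. Between the ages 18582 passed, and 17415 to 18316 without each array. The calls at 180 days were 13 higher and 1 lower, against 15 and 4 with quantile normalization. The cause of these shifts was not tested.

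Same-numbered LY and black arrays deviated from their groups with correlations of -0.07 to -0.003 at 180 days and 0.05 to 0.15 at 90 days. Those of differently numbered arrays lay between -0.01 and 0.06 at 180 days and between -0.16 and 0.12 at 90 days. Whether the numbers pair the mice cannot be told from such values. With the number as a replicate block within age, 2 probes passed at 180 days, 1 at 90 days and 1 on average, 0 of the 8 genes passed between genotypes, and 4 between the ages.

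Signs turned with quantile normalization for Apoe between the ages (-0.38). The other turned signs came from leaving out 1 array, and none of those values passed. For Apoa1 the difference in differences ranged between -0.35 and 0.0534, positive without 180-day LY replicate 3. For Lcat the 90-day difference ranged between -0.0226 and 0.27, negative without 90-day LY replicate 1. For Abca1 the 90-day difference ranged between -0.27 and 0.37, and was -0.27 without 90-day black replicate 1, and -0.16 or -0.12 when LY replicate 2 or 3 of that age was left out. For Abcg1 the 180-day difference ranged between -0.46 and 0.32, positive when any of 180-day LY replicates 1 and 2 or 180-day black replicates 2 and 3 was left out. Its averaged difference (-0.38 to 0.0132) was positive without 180-day LY replicate 1, its difference in differences (-0.17 to 0.62) negative without 180-day LY replicate 3, and its difference between the ages (-0.15 to 0.24) negative without replicate 3 of 180-day LY or of 180-day black mice. Lcat passed between the ages in 6 of 20 alternatives.

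The probes for Lcat, Abca1 and Abcg1 read at most 2.42, 6.34 and 3.17 units on any array.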
